A study of Mus musculus with 16 samples.

Results

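Developing T cells carry a set of transcription factors and chromatin organizers that hold T-cell identity, and 7 of their genes are described here in thymocytes of Tox4 cKO and control mice. The genes are Tcf7, Lef1, Bcl11b, Satb1, Ets1, Ikzf1 and Ikzf3. They were chosen by symbol, and all 7 are listed in both tables of counts, which share 24974 genes. The DP table lists 24984 genes.

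Expression was measured by polyA RNA-seq in 16 samples from mice on the C57BL/6 background, 6 to 8 weeks old, that all carry floxed Tox4 alleles with loxP sites around exons 4 to 6. In the cKO mice a Cre under the proximal Lck promoter removes these exons from the DN3 stage on, before the cells become CD4+CD8+ double positive (DP), and the controls have the floxed alleles without Cre. DP thymocytes came from 3 control samples (Tox4;F/F) and 3 cKO samples (Tox4;F/F;Lck+), and CD8 thymocytes, sorted as TCRβ+CD8+, from 5 control samples (Tox4;F/F) and 5 cKO samples (Tox4;F/F;Lck-cre). The labels number the replicates and do not say that each is a separate animal, so p-values measure the spread between these samples. DP libraries hold 14583336 to 25981683 fragments assigned to genes, and CD8 libraries hold 8514135 to 13530783.

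As background, Tcf7 (which encodes TCF-1) and Lef1 are related HMG-box factors that bind the same DNA letters and act from the first T-lineage steps through the choice of the CD8 fate. Bcl11b is a zinc finger factor needed for commitment to the T lineage, Satb1 is a nuclear organizer that tethers distant chromatin at genes for recombination and lineage choice, and Ets1 is the founding ETS factor of lymphocytes. Ikzf1 (Ikaros) and Ikzf3 (Aiolos) are paired zinc finger factors that work with the NuRD chromatin remodeller, and Tox4 is an HMG-box protein of a nuclear phosphatase complex.

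Levels are given as TPM, the counts per exonic base scaled to the same sum in every sample. Tox4 was at 104, 107 and 113 TPM in the DP control samples and at 86.6, 89.1 and 77.8 TPM in the DP cKO samples. Every DP cKO sample was below every DP control sample, with a log2 fold change of -0.32 (SE 0.11, adjusted p = 0.381 by edgeR's quasi-likelihood test, exact permutation p = 0.1, n = 3 and 3). In CD8 cells Tox4 was at 139, 141, 148, 142 and 129 TPM in the control samples and at 122, 137, 131, 162 and 133 TPM in the cKO samples. These groups overlapped, and the log2 fold change was -0.06 (SE 0.10, adjusted p = 0.979 by edgeR's quasi-likelihood test). The counts are summed over the whole gene, so the removed exons cannot be told apart from the exons that remain, and the gene's count does not show whether the deletion took place. By Western blot of unsorted and sorted thymocytes, the paper found the deletion to be efficient.

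Some libraries stood apart. The library labelled CD8 cKO replicate 4 had the highest Tox4 level of all CD8 samples. CD8 control replicate 1 had at least 1 fragment on 17741 genes, against 13708 to 15054 genes in the other CD8 samples. The CD8 samples numbered 1 and 2 of both genotypes held more Cd4 and Rag1 mRNA than those numbered 3 to 5. Cd4, the coreceptor that CD8 cells switch off, was at 62.1 and 70.9 TPM in control samples 1 and 2 and at 6.31, 3.64 and 10.7 TPM in control samples 3 to 5. In the cKO samples Cd4 was at 69.7 and 81.6 TPM in numbers 1 and 2 and at 6.78, 5.79 and 8.33 TPM in numbers 3 to 5. Klf2, a factor of mature cells that leave the thymus, ran the other way, with 430 to 585 TPM in numbers 1 and 2 and 898 to 1599 TPM in numbers 3 to 5. Xist was high in the CD8 samples numbered 1, 2 and 5 and Y-linked genes in those numbered 3 and 4, in both genotypes, and all DP samples expressed Y-linked genes.

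Markers of the labelled cell types were in place. The summed level of 10 DP markers, which include Cd4, Rag1, Rag2 and Dntt, was 12218 to 16458 TPM in DP samples and 3656 to 4482 TPM in CD8 samples. Rag1, which cuts antigen receptor genes, led this list in DP cells at 3607 TPM in controls, and Cd8b1 led it in CD8 cells at 1787 TPM. The summed level of 10 markers of mature cells was 1108 to 1737 TPM in DP samples and 8088 to 13505 TPM in CD8 samples, and none of these 10 was at 0. Of 9 B cell markers Cd79b was the most abundant, with a summed level of the list of 22.6 to 69.7 TPM over all samples. The 7 thymic epithelial markers added to 7.81 to 20.0 TPM, with Foxn1 at 0 in all DP samples and Psmb11 in all CD8 cKO samples, and 5 globin genes were listed at 0 in all samples. The 7 markers of γδ T and NK cells that the tables list added to 2.21 to 9.32 TPM in DP samples and to 96.6 to 180 TPM in CD8 samples, where Klrd1 led them, and Ncr1 was at 0 in all DP cKO samples. The 8 CD8 lineage markers added to 3786 to 5692 TPM in DP samples and to 5434 to 8330 TPM in CD8 samples, led by Cd8b1. The 4 markers of CD4 cells added to 1488 to 1876 TPM in DP samples, where Cd4 led them, and to 99.5 to 270 TPM in CD8 samples, where Izumo1r led them.

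All 7 factors were among the most abundant mRNAs of these cells. Over the 16 samples they ranked between 2 and 535 of 24974 genes by TPM, and no sample had fewer than 6137 fragments on any of them, so counting error is small beside the spread between samples. Together they made up 0.741 to 1.19 percent of all TPM. Tcf7 stood alone at the top, at rank 2 or 3 in every DP sample and at rank 5 to 18 in the CD8 samples.

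The order of the factors differed between the cell types. In DP control cells it ran Tcf7, Satb1, Ets1, Lef1, Ikzf1, Bcl11b, Ikzf3, and the neighbours Lef1 and Ikzf1, and also Bcl11b and Ikzf3, overlapped between samples. In DP cKO cells Ets1 came before Satb1, with no overlap. Lef1 overlapped there with the genes on both sides of it, Ikzf1 and Bcl11b, and no other neighbours overlapped. In CD8 control cells the order was Tcf7, Lef1, Ets1, Satb1, Ikzf1, Ikzf3, Bcl11b, and from Ets1 down each gene overlapped with the next. The CD8 cKO samples gave the same order, with overlaps between Lef1 and Ets1 and between Satb1 and Ikzf1. Lef1 thus held the place after Tcf7 in CD8 cells, which Satb1 or Ets1 held in DP cells. The plot of the levels of the factors by sample shows each of these values.

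**Figure D1:**
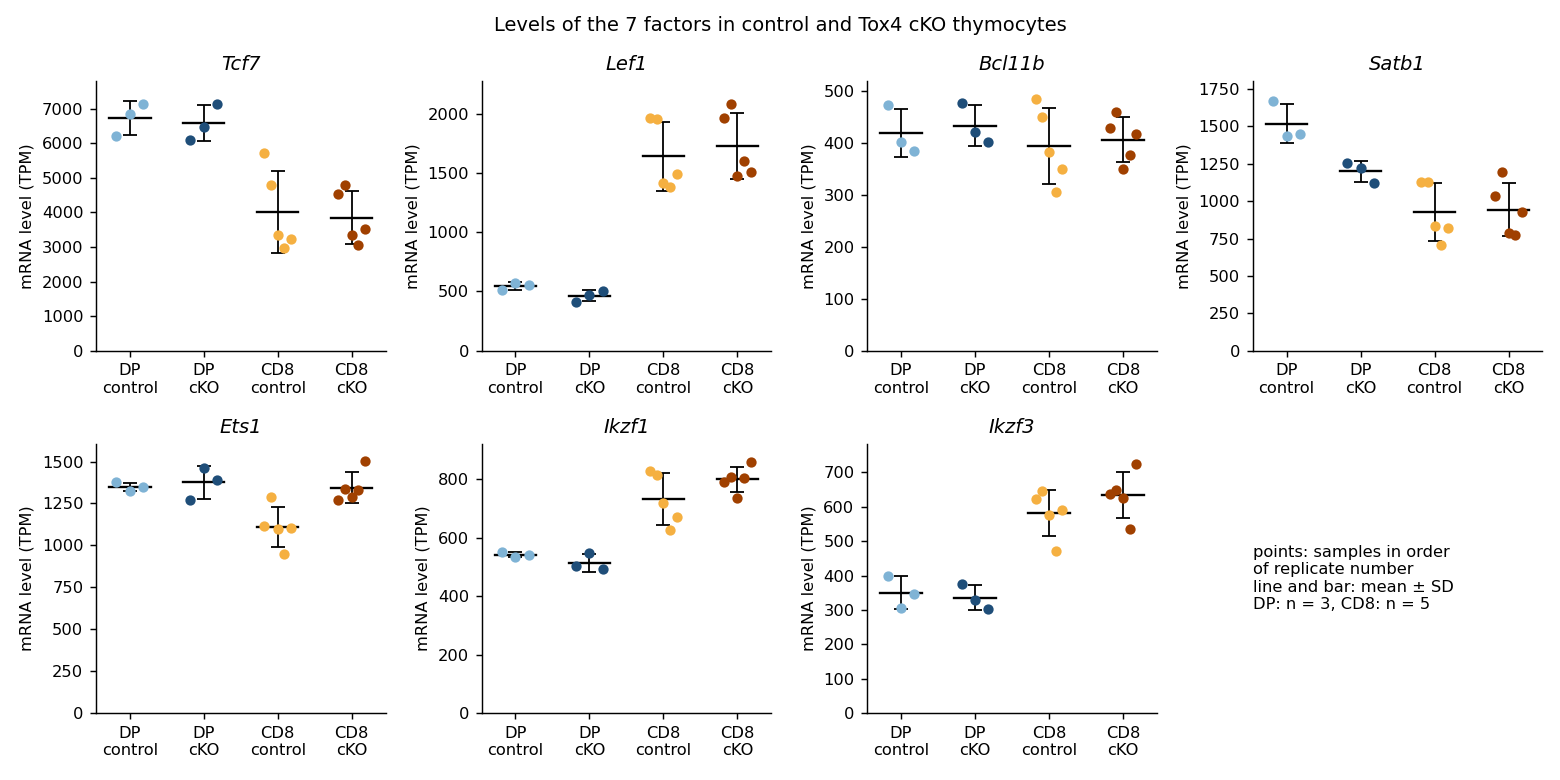
mRNA level in TPM of each of the 7 factors (vertical axis, from 0) in DP control and cKO samples (n = 3 each) and CD8 control and cKO samples (n = 5 each), with points for samples, lines for means and bars for the SD. Lef1 sits between 415 and 570 TPM in the DP samples and between 1383 and 2083 TPM in the CD8 samples.

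The DP and CD8 controls were compared to see how the factors differ between DP thymocytes and thymocytes that have taken the CD8 fate. The DP samples are the whole DP population, in which the paper counts dividing, rearranging and selected cells. Of the 7 factors, 3 were higher and 3 lower in CD8 cells at an adjusted p under 0.05 by edgeR's quasi-likelihood test. Of the 11758 genes tested, 7093 (60.3 percent) passed this test, with 3515 (29.9 percent) higher and 3578 (30.4 percent) lower in CD8 cells, so passing it does not set the factors apart from other genes. The median size of the log2 fold change was 0.60 over all genes tested and 0.95 over those that passed. The study's own thresholds, which add a fold change above 1.5, left 4 of the factors, Tcf7, Lef1, Satb1 and Ikzf3. The cell types come from separate tables, so cell type and experiment cannot be told apart in this comparison. Among samples of Y-linked expression alone, CD8 controls 3 and 4 against the 3 DP controls, Lef1 (1.296), Tcf7 (-1.16), Satb1 (-1.04) and Ikzf3 (0.52) passed in the same directions.

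Tcf7 and Lef1, the HMG-box pair, went in opposite directions. Tcf7 was at 6194, 6840 and 7134 TPM in the DP control samples and at 5725, 4797, 3335, 2965 and 3233 TPM in the CD8 control samples. Each CD8 sample was below each DP sample, and CD8 samples 1 and 2 lay closest to the DP range. The log2 fold change was -0.82 (SE 0.21, adjusted p = 0.00459 by edgeR's quasi-likelihood test). Lef1 was at 512, 570 and 557 TPM in the DP control samples and at 1959, 1952, 1411, 1383 and 1492 TPM in the CD8 control samples. All CD8 samples were more than 2-fold above all DP samples, and here samples 1 and 2 lay farthest from the DP range. The log2 fold change of Lef1 was 1.51 (SE 0.15, adjusted p = 6.33e-06 by edgeR's quasi-likelihood test), larger in size than 82.9 percent of the genes tested and the largest of the 7.

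The start sites of this pair are shown because they are the members that moved apart most. The promoter table of RefSeq (GRCm38.p6, the build of mm10) holds 300 bases around 14 start sites of 5 of the factors and none for Ets1 and Ikzf3. For Tcf7 the outermost of 2 start sites lies in chr11:52282965-52283264 on the minus strand, and for Lef1 the outermost of 4 in chr3:131110047-131110346 on the plus strand. Capitals mark the E box letters CAGCTG in Tcf7, 159 bases before the listed start, and the Ikaros letters TGGGAA in Lef1, beginning 38 bases after it. The Tcf7 match lies in a reading frame that opens at an atg just before it. This frame runs to the end of the window without a stop, so these letters may be coding sequence of a transcript that starts farther out.
Tcf7: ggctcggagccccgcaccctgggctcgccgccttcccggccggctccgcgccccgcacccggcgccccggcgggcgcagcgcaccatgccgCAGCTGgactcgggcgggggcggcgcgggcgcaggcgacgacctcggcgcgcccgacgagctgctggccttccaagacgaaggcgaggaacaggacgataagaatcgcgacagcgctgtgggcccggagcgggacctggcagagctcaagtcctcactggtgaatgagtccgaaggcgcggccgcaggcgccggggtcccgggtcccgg
Lef1: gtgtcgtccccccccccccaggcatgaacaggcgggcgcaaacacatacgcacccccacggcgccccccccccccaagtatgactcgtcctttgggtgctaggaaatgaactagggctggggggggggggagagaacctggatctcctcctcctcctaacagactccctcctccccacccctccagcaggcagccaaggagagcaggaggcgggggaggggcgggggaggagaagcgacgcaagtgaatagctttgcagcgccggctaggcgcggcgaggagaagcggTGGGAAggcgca
For the 5 factor families below, letters were searched on both strands, and a match is a description of the letters and not a binding site. The TCF/LEF letters CTTTGAT, held by 3.73 percent of the 32851 promoters of this length, were in 0 of the 14 windows of the factors. The RUNX letters TGTGGTT, held by 5.27 percent of promoters, were also in 0 of them. The ETS letters CCGGAAGT, held by 3.89 percent, were in 1 window, that of the other Tcf7 start site. The Ikaros letters TGGGAA, held by 25.6 percent, were in 5 windows, of which those of Lef1 start sites 1 and 2 overlap and share 1 match, and the E box letters CAGCTG, held by 16.3 percent, in 3. No match says only that the letters are not in these windows.

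Within each library the ratio of Tcf7 to Lef1 removes the size of the library from the comparison. It was chosen after the values of both genes were seen. The ratio was 12.1, 12.01 and 12.8 in the DP control samples and 2.92, 2.46, 2.36, 2.14 and 2.17 in the CD8 control samples. The 2 groups lay far apart. The difference of the log2 ratios was -2.36.

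Satb1 and Bcl11b, the organizer and the commitment factor, differed from each other in this comparison. Satb1 was at 1669, 1439 and 1449 TPM in the DP control samples and at 1130, 1130, 835, 706 and 823 TPM in the CD8 control samples. The groups did not overlap, and the log2 fold change was -0.79 (SE 0.15, adjusted p = 9.01e-04 by edgeR's quasi-likelihood test). Bcl11b was at 473, 403 and 385 TPM in the DP control samples and at 486, 451, 382, 305 and 351 TPM in the CD8 control samples. CD8 samples 1 and 2 were within or above the DP range, and samples 3 to 5 were below it. Its log2 fold change was -0.16 (95 percent interval -0.47 to 0.15, adjusted p = 0.353 by edgeR's quasi-likelihood test). With CD8 samples 3 to 5 alone Bcl11b was lower in CD8 cells, at -0.34 (adjusted p = 0.0119 by edgeR's quasi-likelihood test), and with samples of Y-linked expression alone at -0.35 (adjusted p = 0.0402), in a range of adjusted p from 0.0119 to 0.878 over its alternatives.

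Satb1 is shown also by its start site 3, because that window holds the most matches of the 14. It lies in chr17:51826539-51826838 on the minus strand, and capitals mark the E box letters CAGCTG 64 bases before and 10 bases after the start and, 17 bases after it, the Ikaros letters on the opposite strand.
Satb1: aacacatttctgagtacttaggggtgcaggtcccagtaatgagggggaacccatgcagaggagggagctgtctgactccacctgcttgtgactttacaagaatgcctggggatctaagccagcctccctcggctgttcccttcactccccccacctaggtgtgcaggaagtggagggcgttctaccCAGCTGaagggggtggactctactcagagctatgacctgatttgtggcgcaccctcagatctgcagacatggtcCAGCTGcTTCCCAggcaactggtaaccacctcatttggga

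Ets1 was at 1376, 1323 and 1347 TPM in the DP control samples and at 1116, 1286, 1101, 950 and 1102 TPM in the CD8 control samples. All CD8 samples were below all DP samples, by little in sample 2. The log2 fold change was -0.36 (SE 0.11, adjusted p = 0.0125 by edgeR's quasi-likelihood test), and with the replicate number as a block it did not pass, at -0.30 (adjusted p = 0.102, in a range of 3.57e-04 to 0.102 over its alternatives).

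The Ikaros pair was higher in CD8 cells. Ikzf3 was at 400, 305 and 347 TPM in the DP control samples and at 623, 646, 577, 472 and 591 TPM in the CD8 control samples. The groups did not overlap, and the log2 fold change was 0.66 (SE 0.12, adjusted p = 4.46e-04 by edgeR's quasi-likelihood test). Ikzf1 was at 550, 533 and 540 TPM in the DP control samples and at 828, 814, 720, 627 and 670 TPM in the CD8 control samples. The groups did not overlap either, and the log2 fold change was 0.36 (SE 0.11, adjusted p = 0.0170 by edgeR's quasi-likelihood test). Ikzf1 did not pass among samples of Y-linked expression alone, at 0.26 (adjusted p = 0.0734, in a range of 0.00182 to 0.0734 over its alternatives). The 2-sided exact permutation test gave 0.0357, the least possible value for 5 against 3, for each of the 6 factors that passed, and 0.321 for Bcl11b.

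Levels of the maturation markers Cd4 and Klf2 moved with some of these factors within the CD8 samples. In both genotypes CD8 samples 1 and 2, which had more Cd4 and less Klf2, held the highest levels of Tcf7, Lef1, Satb1 and Bcl11b. The other 3 factors had their highest levels in samples 1 and 2 among the controls but not among the cKO samples, where Ikzf1, Ikzf3 and Ets1 peaked in sample 5 in TPM, and Ikzf1 and Ets1 in sample 4 in normalized CPM. Lef1 was thus highest in the CD8 samples with the most Cd4 although it was low in DP cells, at 1952 to 2083 TPM in numbers 1 and 2 of both genotypes and at 1383 to 1603 TPM in numbers 3 to 5. In bulk samples fewer cells of a type and less RNA per cell cannot be told apart. The summed markers of mature cells also followed the number, at 8088 to 8427 TPM in numbers 1 and 2 and at 10768 to 13505 TPM in numbers 3 to 5 of both genotypes. The summed DP markers, which include Cd8a and Cd8b1 that CD8 cells keep, were at 4443, 4482, 4130, 3767 and 3919 TPM in the control samples and at 3867, 3967, 3656, 4163 and 3782 TPM in the cKO samples. The part of maturity in the differences between DP and CD8 cells was not tested.

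**Figure D2:**
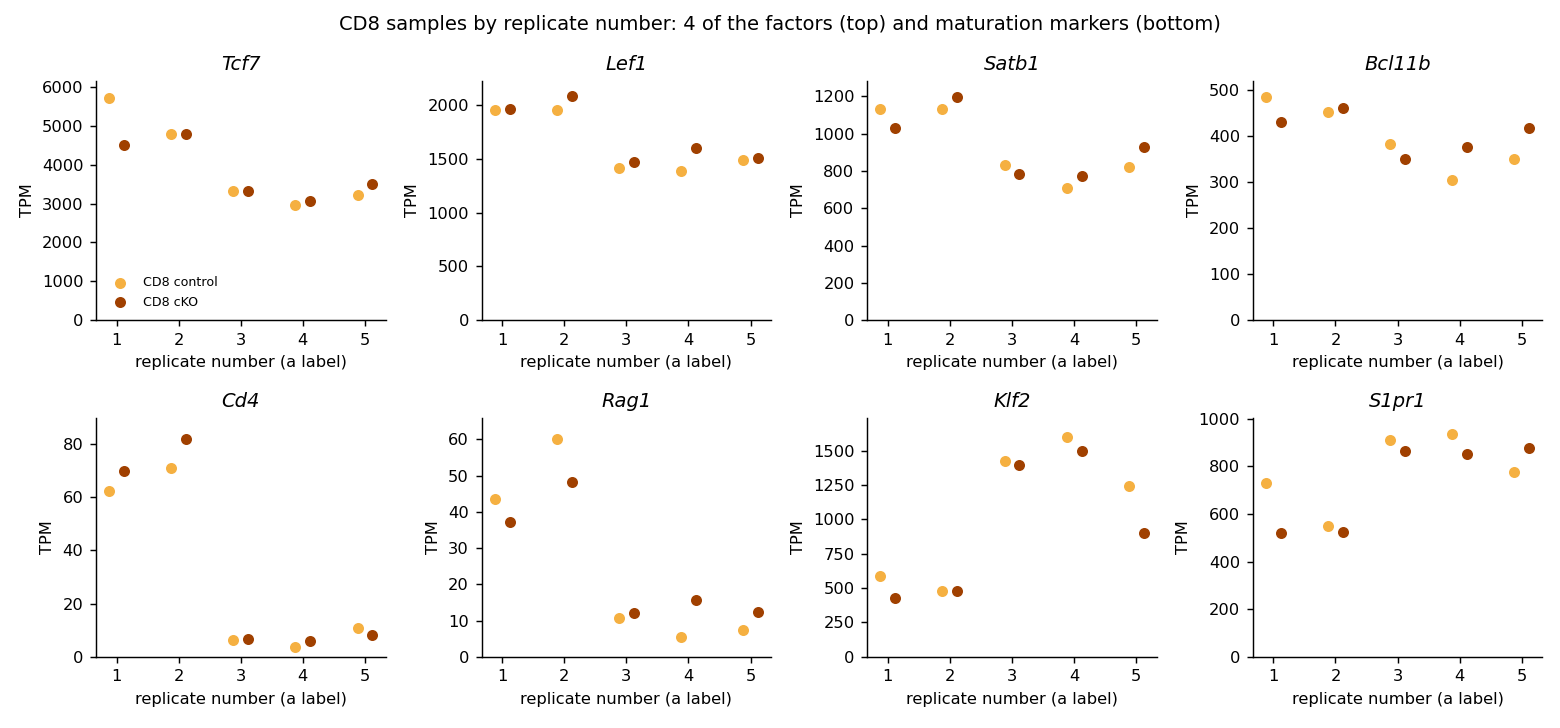
Levels in TPM (vertical axis, from 0) of 4 of the factors and of 4 maturation markers in the 5 CD8 control and 5 CD8 cKO samples, placed by replicate number, which is a label and not an order. Samples 1 and 2 have 62.1 to 81.6 TPM of Cd4 and samples 3 to 5 have 3.64 to 10.7 TPM.

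The cKO samples give the same comparison of cell types in other libraries. Cell type and experiment cannot be told apart in them either. Among samples of Y-linked expression alone 5 of the 7 factors passed edgeR's quasi-likelihood test, beside 6103 of 11949 genes. Of the 11740 genes tested, 7402 (63.0 percent) passed edgeR's quasi-likelihood test at an adjusted p under 0.05, with 3471 (29.6 percent) higher and 3931 (33.5 percent) lower in CD8 cells, and 5 of the 7 factors passed. Lef1, with 415, 473 and 507 TPM in DP cKO samples and 1960, 2083, 1475, 1603 and 1506 TPM in CD8 cKO samples, was higher in CD8 cells by a log2 fold change of 1.71 (SE 0.18, adjusted p = 3.82e-06). Tcf7, with 6102, 6477 and 7138 TPM in DP cKO samples and 4517, 4787, 3330, 3065 and 3511 TPM in CD8 cKO samples, was lower by -0.95 (SE 0.17, adjusted p = 3.44e-04). Neither gene overlapped between the cell types. Ikzf3 was higher by 0.74 and Ikzf1 by 0.46, and Satb1 was lower by -0.52, with adjusted p-values of 9.35e-05, 0.00405 and 0.00982 by edgeR's quasi-likelihood test. Satb1 overlapped in 1 sample, CD8 cKO replicate 2 at 1197 TPM, which lay within the DP cKO range of 1120 to 1254 TPM.

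Ets1 and Bcl11b did not pass in the cKO samples. Ets1 was at 1272, 1464 and 1392 TPM in the DP cKO samples and at 1268, 1338, 1286, 1332 and 1502 TPM in the CD8 cKO samples, which overlapped, with a log2 fold change of -0.21 (95 percent interval -0.47 to 0.04, adjusted p = 0.127 by edgeR's quasi-likelihood test). Bcl11b had a log2 fold change of -0.27 (95 percent interval -0.54 to 0.01, adjusted p = 0.0803), and it passed with CD8 samples 3 to 5 alone at -0.36 (adjusted p = 0.0414, in a range of 0.0414 to 0.256 over its alternatives). The exact permutation p in the cKO samples was 0.0357 for Bcl11b (0.0714 with RLE size factors) and for the 5 factors that passed, and 0.0714 for Ets1. The ratio of Tcf7 to Lef1 was 14.7, 13.7 and 14.1 in the DP cKO samples and 2.30, 2.30, 2.26, 1.91 and 2.33 in the CD8 cKO samples. The groups did not overlap, and the difference of the log2 ratios was -2.68.

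The closest relatives of the factors were compared between the cell types too. In the controls 6 of 8 tested paralogs passed edgeR's quasi-likelihood test, as did 60.3 percent of all genes tested. Ets2, the sister of Ets1, was lower in CD8 cells by -2.35 on the log2 scale (adjusted p = 2.94e-08) and went from 617 TPM to 126 TPM. Ikzf4 (Eos), the relative of Ikaros found in regulatory T cells, was higher by 4.34 (adjusted p = 3.25e-08) but reached only 49.0 TPM. Ikzf2 (Helios) was higher by 1.13, Fli1 by 0.79, Tcf7l1 by 1.83 and Tcf7l2 by 0.90, and these last 2 stayed at 15.4 and 8.28 TPM in CD8 control cells, far below Tcf7 and Lef1. Ikzf5 (0.11) and Bcl11a (0.71, under 1 TPM on average) did not pass. In the cKO samples the same 6 genes passed in the same directions, from -2.50 for Ets2 to 4.77 for Ikzf4. The plot of CD8 against DP thymocytes sets the factors and their paralogs side by side.

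**Figure D3:**
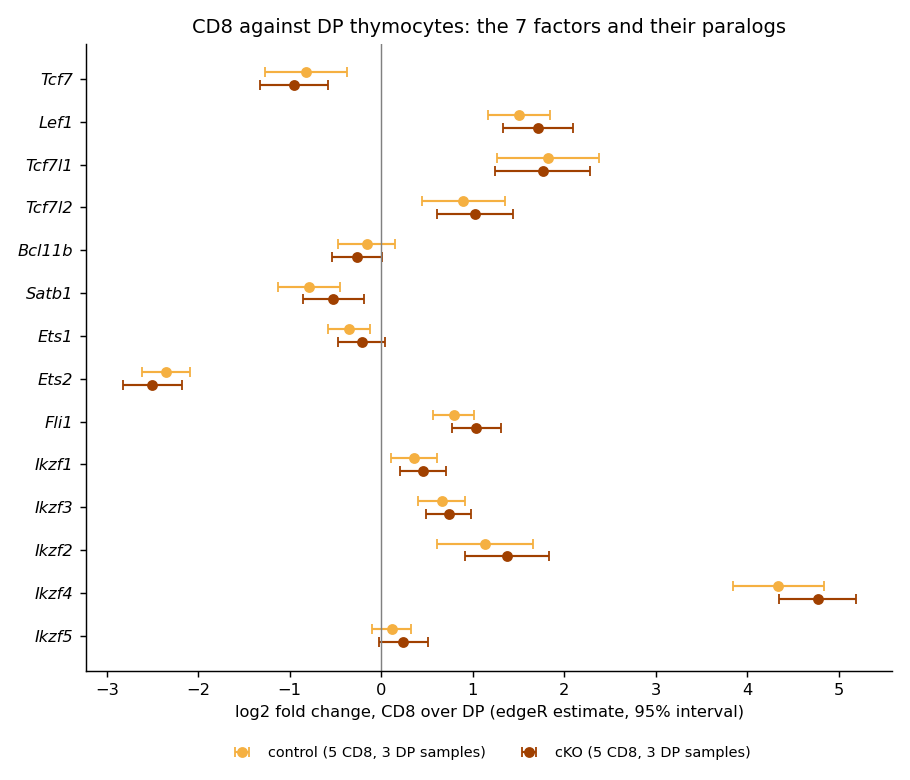
Log2 fold change of CD8 over DP thymocytes (horizontal axis, points) with 95 percent intervals (bars) for the 7 factors and 7 paralogs in control and cKO samples (5 CD8 and 3 DP samples each). Lef1 lies at 1.51 and 1.71 and Tcf7 at -0.82 and -0.95, with Ets2 and Ikzf4 farther out at -2.35 and 4.34 in the controls.

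The partners and complexes of the factors were described by lists, with counts by edgeR's quasi-likelihood test in the control comparison and the median log2 fold change beside that of all genes tested, which was -0.01. Of all genes tested 29.9 percent were higher and 30.4 percent lower, and the counts below are to be read beside these shares. Of 16 tested partners of TCF and LEF factors, 6 were higher and 6 lower in CD8 cells (median -0.17), with Bcl9l (2.59), Tle4 (2.12), Bcl9 (1.52) and Apc (1.16) at the smallest adjusted p. Tle4 is a corepressor and Bcl9 and Bcl9l are coactivators that work with β-catenin. Of 14 NuRD subunits 6 were higher and 5 lower (median 0.05), and the remodeller Chd3 was higher by 2.11, Mta3 by 1.13 and Gatad2b by 0.80, while the histone binder Rbbp4 was lower by -1.10. Of 23 genes for CTCF, cohesin and condensin, 3 were higher and 12 lower (median -0.35). The boundary factor Ctcf was at -0.81, the cohesin subunit Rad21 at -0.68, and the condensin subunits Ncapd2 and Ncaph2 at -0.96 and -0.90. Of 8 tested markers of early and dividing thymocytes 1 was higher and 6 lower (median -1.72), and their part in the values of this list was not tested. Of 13 further ETS factors 8 were higher and 0 lower (median 0.41), led by Elf4 (1.04), Elk3 (1.09), Elk1 (0.82) and Elk4 (1.25). Ets1 and Ets2 were thus lower in CD8 cells while Fli1 and these 8 were higher.

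Genes that the factors are known to act on were counted the same way, beside the same 60.3 percent of all genes that passed. All 10 loci linked to Satb1 passed, 3 higher and 7 lower in CD8 cells (median -1.11), among them Rag1 (-7.23), Rag2 (-5.62), the CD8 lineage factor Runx3 (4.09) and the survival factor Bcl2 (2.70). Of 13 tested genes that Bcl11b restrains, 10 were higher and 2 lower (median 2.44), with the killer cell genes Nkg7 (5.56), Il2rb (4.99) and Klrd1 (4.94) and again Runx3. Of 9 genes that Tcf7 and Lef1 restrain, 5 were higher and 3 lower (median 1.27), with Cd4 (-5.86) lower and Ctla4 (2.93) and Foxp3 (2.45) higher. Of 7 tested genes that Ikaros restrains, most of them Notch targets, 2 were higher and 4 lower (median -0.94), with Dtx1 (3.97) higher and Dntt (-5.00), Ptcra (-4.43) and Notch3 (-1.85) lower. Of 24 other T lineage factors 13 were higher and 7 lower (median 0.89), with Klf2 (6.24), Runx3 (4.09), Bach2 (3.02) and Foxo1 (2.92) at the smallest adjusted p. These lists share genes, and many of the genes are the stage markers by which DP and CD8 cells are told apart.

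The same lists were counted in the cKO samples, where 29.6 percent of all genes tested were higher and 33.5 percent lower and their median was -0.06. In CD8 against DP cKO cells 6 of 16 TCF and LEF partners were higher and 8 lower (median -0.26), 6 of 15 NuRD subunits were higher and 6 lower (median 0.09), and 3 of 23 CTCF, cohesin and condensin genes were higher and 9 lower (median -0.18). Of the further ETS factors 10 of 13 were higher and 0 lower (median 0.72). Of the loci linked to Satb1 3 of 10 were higher and 6 lower (median -1.14), and of the genes restrained by Bcl11b 9 of 13 were higher and 2 lower (median 4.79). Of those restrained by Tcf7 and Lef1 5 of 9 were higher and 2 lower (median 1.78). Of those restrained by Ikaros 2 of 8 were higher and 3 lower, with a median of 0.17 against -0.94 for the 7 tested in the controls. Of the other T lineage factors 14 of 24 were higher and 7 lower (median 0.92).

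DP cKO and DP control samples were compared to see whether the factors differ between the genotypes at the DP stage. None of the 7 passed edgeR's quasi-likelihood test at an adjusted p under 0.05, where 17 of 11748 genes (0.145 percent) did, 10 higher and 7 lower in cKO cells. At an unadjusted p under 0.05 there was 1 of the 7, Satb1, beside 1079 of the 11748 genes, and DESeq2 passed 184 genes and 0 of the 7. Blocking by replicate number gave 152 genes and again 0 of the 7, and at an unadjusted p under 0.05 there were 2 of the 7, Satb1 and Lef1, beside 1941 genes. The count of genes was 8, 0 and 4 without control replicate 1, 2 or 3 and 7, 1 and 1 without cKO replicate 1, 2 or 3.

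Satb1 had the largest difference of the 7 in DP cells. It was at 1669, 1439 and 1449 TPM in the control samples and at 1254, 1220 and 1120 TPM in the cKO samples. All cKO samples were below all control samples. The log2 fold change was -0.30 (95 percent interval -0.53 to -0.08, adjusted p = 0.346 by edgeR's quasi-likelihood test and from 0.122 to 0.722 over its alternatives), and the exact permutation p was 0.1, the smallest that 3 samples against 3 allow. Lef1 was the other factor whose TPM did not overlap, with 512, 570 and 557 TPM in the control samples and 415, 473 and 507 TPM in the cKO samples. Its log2 fold change was -0.19 (95 percent interval -0.50 to 0.12, adjusted p = 0.748 by edgeR's quasi-likelihood test, exact permutation p = 0.2). These 2 of 7 compare with 1749 of 11744 genes (14.9 percent) whose TPM did not overlap between the DP groups. In normalized CPM Lef1 overlapped, which left 1 of 7 beside 1721 of 11744 genes (14.7 percent).

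The other 5 factors lay closer to 0 in DP cells. The log2 fold change was 0.01 for Tcf7, with control samples at 6194 to 7134 TPM and cKO samples at 6102 to 7138 TPM, and it turned to -0.0016 with RLE size factors and to -0.0006 by DESeq2. It was 0.08 for Bcl11b, 0.07 for Ets1, -0.03 for Ikzf1 and -0.02 for Ikzf3, and each of these overlapped between genotypes. Bcl11b was higher in cKO than in control samples of the same number in all 3 pairs (478 and 473, 421 and 403, 401 and 385 TPM). The 95 percent intervals of the 5 ran between -0.31 and 0.33 on the log2 scale, so differences within that range are not excluded with 3 samples a group.

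The ratio of Satb1 to Bcl11b was chosen after the values were seen and joins the factors with the lowest and the highest log2 fold change in DP cells, so it restates those values. It was 3.53, 3.57 and 3.76 in the DP control samples and 2.62, 2.90 and 2.79 in the DP cKO samples. Every cKO value was below every control value, and the difference of the log2 ratios was -0.39. In CD8 cells the ratio was 2.33 ± 0.11 (SD, n = 5) in the control samples and 2.30 ± 0.21 (SD, n = 5) in the cKO samples, which overlapped (difference of log2 ratios -0.02). The DP cKO ratios lay above the range of the CD8 samples, 2.05 to 2.60, and below that of the DP control samples. The ratio of Tcf7 to Lef1 did not overlap between the DP genotypes either, at 12.01 to 12.8 in control and 13.7 to 14.7 in cKO samples (difference of log2 ratios 0.20). This ratio too was chosen after the values were seen. With Tcf7 at 0.01 and Lef1 at -0.19 on the log2 scale, it mostly restates the lower Lef1 values. Both ratios had an exact permutation p of 0.1 in DP cells, and groups of 3 cannot reach a lower one. Among single genes, 14.9 percent did not overlap in TPM between the DP groups. The ratio of Tcf7 to Lef1 overlapped between the CD8 genotypes (difference of log2 ratios -0.11). The ratio of Ikzf1 to Ikzf3 overlapped between genotypes in both cell types, with means of 1.56 and 1.54 in DP and 1.26 and 1.27 in CD8 samples.

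**Figure D4:**
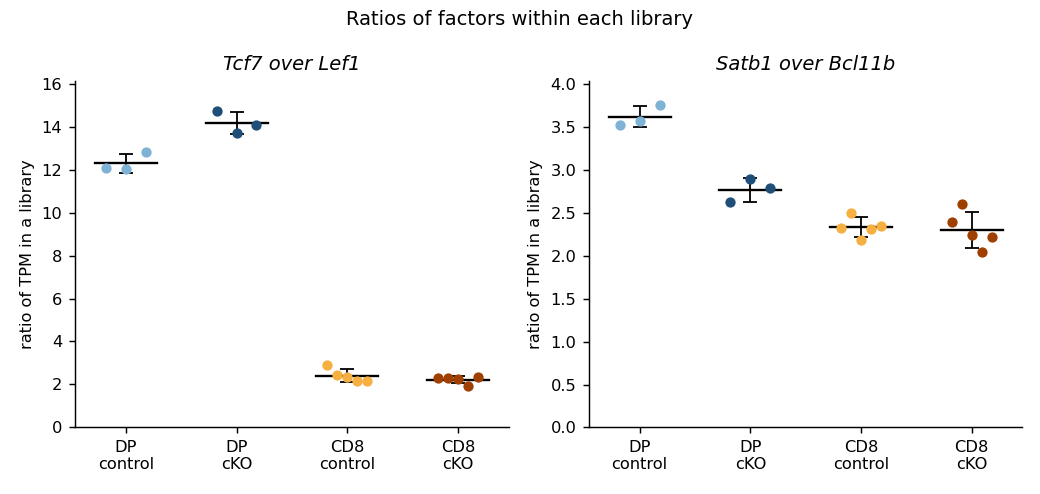
Ratio of the TPM of Tcf7 to Lef1 and of Satb1 to Bcl11b within each library (vertical axes, from 0) in DP control and cKO samples (n = 3 each) and CD8 control and cKO samples (n = 5 each), with points for samples, lines for means and bars for the SD. Satb1 to Bcl11b is 3.53 to 3.76 in DP control and 2.62 to 2.90 in DP cKO samples.

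Markers of other stages and cells were summed in the DP samples of both genotypes. The 10 markers of mature cells added to 1737, 1549 and 1475 TPM in the control samples and to 1108, 1154 and 1264 TPM in the cKO samples, led by Cd52, with none at 0. The 12 myeloid markers added to 185, 358 and 164 TPM in the control samples and to 112, 127 and 149 TPM in the cKO samples, led by Cd74, with none at 0 in all samples of a group. The 7 γδ T and NK markers added to 9.32, 4.36 and 3.99 TPM in the control samples and to 2.21, 3.82 and 3.44 TPM in the cKO samples. These 3 lists were lower in all cKO samples than in all control samples. The 8 CD8 lineage markers, led by Cd8b1 with none at 0, added to 5692, 4642 and 4793 TPM in the control samples and to 4691, 3786 and 4031 TPM in the cKO samples, which overlapped. Each cKO sum of this list was below that of the control sample of its number. The 9 markers of early and dividing thymocytes, led by Top2a, added to 742, 691 and 437 TPM in the control samples and to 1167, 680 and 665 TPM in the cKO samples, which overlapped, and 0 of them were at 0. Over all genes 17 of 11748 passed edgeR's test, with 1079 at an unadjusted p under 0.05, and 184 of 16897 passed by DESeq2. Of the mature markers 0 of 10 passed edgeR's test, with 4 at an unadjusted p under 0.05 and 1 by DESeq2, and of the myeloid markers 0 of 12 passed, with 7 unadjusted and 3 by DESeq2. Of the CD8 lineage markers 0 of 8 passed, with 4 unadjusted and 2 by DESeq2, and of the γδ T and NK markers 0 of 2 tested, with 0 unadjusted and 0 by DESeq2. Of the markers of CD4 cells 0 of 4 passed, with 2 unadjusted and 1 by DESeq2. Their part in the lower Satb1 and Lef1 values was not tested.

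In DP cells the lists around the factors held 1 gene that passed edgeR's quasi-likelihood test. Notch3, a Notch receptor in the list of genes that Ikaros restrains and among the markers of early thymocytes, was at a mean of 42.7 TPM in control and 83.4 TPM in cKO samples, with a log2 fold change of 1.01 (SE 0.14, adjusted p = 0.0415). With any 1 of the 6 samples left out its log2 fold change stayed at 0.92 to 1.10 and it did not pass (adjusted p = 0.0775 without control replicate 1, 0.229 without control replicate 2, 0.152 without control replicate 3, 0.0900 without cKO replicate 1, 0.157 without cKO replicate 2 and 0.168 without cKO replicate 3, in a range of 1.22e-07 to 0.229 over all its alternatives). Among all 11748 genes 1079 were at an unadjusted p under 0.05, and DESeq2 passed 184 of 16897. Among 23 other T lineage factors 0 passed, with 9 at an unadjusted p under 0.05 and 3 by DESeq2. The values with the smallest adjusted p were -0.68 for Bach2, -1.08 for the CD4 lineage factor Zbtb7b, 0.89 for Zfp36l2 and -0.59 for Egr1. Among the 10 loci linked to Satb1 0 passed, with 3 unadjusted and 2 by DESeq2, at -1.08 for Zbtb7b, -0.67 for Bcl2, -0.45 for Cd8a and -0.24 for Rag1.

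The other lists had 0 genes past edgeR's quasi-likelihood test in DP cells. DESeq2 also gave 0 for the paralogs, the further ETS factors, the TCF and LEF partners, NuRD, the CTCF, cohesin and condensin list and the genes restrained by Tcf7 and Lef1, and 2 for the genes restrained by Bcl11b. At an unadjusted p under 0.05 there were 0 of 8, 1 of 13, 0 of 16, 2 of 14, 2 of 23, 1 of 7 and 3 of 9 tested genes in these 7 lists, in the order just given. Over all genes there were 1079 of 11748 at this p, and DESeq2 passed 184 of 16897. The paralogs ran from -0.48 (Ikzf4) to 0.22 (Bcl11a), with Ets2 at -0.07 and Fli1 at -0.29.

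CD8 cKO and CD8 control samples were compared to see whether the factors differ between the genotypes after the CD8 fate is taken. None of the 7 passed edgeR's quasi-likelihood test, where 12 of 11227 genes (0.107 percent) did, 10 higher and 2 lower in cKO cells. At an unadjusted p under 0.05 there was 1 of the 7, Ets1, beside 629 of the 11227 genes, and DESeq2 passed 66 genes and 0 of the 7. The count of genes was 4 without control replicate 3, 6 without control replicate 5, 7 without cKO replicate 3 and 21 without the library labelled cKO replicate 4. With CD8 samples 3 to 5 alone 5 genes passed and 0 of the 7. Blocking by replicate number gave 44 genes, 33 higher and 11 lower in cKO cells, and again 0 of the 7. At an unadjusted p under 0.05 the block gave 1 of the 7 beside 983 genes.

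Ets1 had the largest difference of the 7 in CD8 cells. It was at 1116, 1286, 1101, 950 and 1102 TPM in the control samples and at 1268, 1338, 1286, 1332 and 1502 TPM in the cKO samples. The groups overlapped in TPM by control replicate 2, and 3 of the 5 cKO samples were above all control samples. Each cKO sample was above the control sample of its number, though the numbers were not taken to pair the CD8 samples. The paper states that its mice were littermates of matched sex, and sex follows the number in both genotypes. The log2 fold change was 0.24 (95 percent interval 0.05 to 0.44, adjusted p = 0.700 by edgeR's quasi-likelihood test and from 0.177 to 0.998 over its alternatives). The 2-sided exact permutation test of the log2 normalized CPM gave 0.00794, the least possible value for groups of 5, and this p is 1 of those for the 7 factors and is not adjusted. Among the 11227 genes 155 (1.38 percent) did not overlap in TPM between the genotypes, and 0 of the 7 factors were among them. In normalized CPM 169 genes (1.51 percent) did not overlap, and Ets1 was 1 of them.

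The other 6 factors lay between -0.09 and 0.09 on the log2 scale. Tcf7 was at -0.09 and Lef1 at 0.05, with 95 percent intervals of -0.50 to 0.31 and -0.26 to 0.35. Bcl11b was at 0.01, Satb1 at -0.0043, Ikzf1 at 0.09 and Ikzf3 at 0.09, and their 95 percent intervals ran between -0.33 and 0.32. Each of the 6 overlapped between genotypes. The spread between CD8 samples was larger than these differences, as in Tcf7, at 2965 to 5725 TPM among the controls and 3065 to 4787 TPM among the cKO samples.

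**Figure D5:**
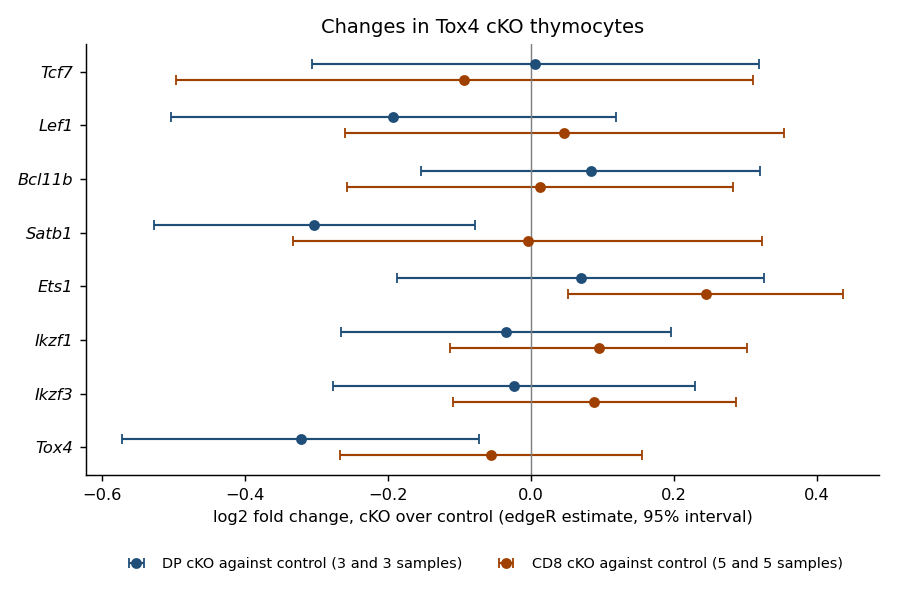
Log2 fold change of cKO over control (horizontal axis, points) with 95 percent intervals (bars) for the 7 factors and Tox4 in DP cells (3 and 3 samples) and CD8 cells (5 and 5 samples). Intervals exclude 0 for Satb1 (-0.53 to -0.08) and Tox4 in DP cells and for Ets1 (0.05 to 0.44) in CD8 cells, without adjustment over genes.

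The lists of relatives, partners and genes acted on had 0 genes past edgeR's quasi-likelihood test in CD8 cells, and DESeq2 also gave 0 in each. At an unadjusted p under 0.05 there were 629 of all 11227 genes. In the lists there were 0 of 8 paralogs, 1 of 13 further ETS factors, 2 of 15 TCF and LEF partners, 0 of 14 NuRD subunits, 0 of 23 CTCF, cohesin and condensin genes, 0 of 23 other T lineage factors and 1 of 10 loci linked to Satb1. There were also 2 of 12 genes restrained by Bcl11b, 3 of 9 restrained by Tcf7 and Lef1 and 1 of 6 restrained by Ikaros. Foxp3, the regulatory T cell factor, had a log2 fold change of -1.16 (adjusted p = 0.277 by edgeR's quasi-likelihood test), and the corepressors Tle1 and Tle2 had -0.54 (adjusted p = 0.378) and -0.53 (adjusted p = 0.877). The other genes counted at an unadjusted p under 0.05 were Kit (0.57), Cxcr5 (0.75), Klrd1 (0.41), Notch1 (0.21) and Gabpa (0.17), which were higher, and Prdm1 (-0.75), which was lower. Among the γδ T and NK markers Cd163l1, a scavenger receptor of γδ T cells, passed at 1.81 (adjusted p = 0.00984 by edgeR's quasi-likelihood test) but not with CD8 samples 3 to 5 alone, at 1.73 (adjusted p = 0.110). The summed level of these markers was 99.7, 96.6, 122, 111 and 106 TPM in the control samples and 161, 103, 179, 124 and 180 TPM in the cKO samples, led by Klrd1 in each. The cells were sorted as TCRβ+CD8+, and the part of this summed level in the Ets1 values was not tested.

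Whether the cKO effect differs between the cell types was tested as the difference of the 2 log2 fold changes. None of the 7 factors passed edgeR's quasi-likelihood test, where 13 of 12131 genes (0.107 percent) did, and at an unadjusted p under 0.05 there were 0 of the 7 beside 639 genes. DESeq2 passed 37 genes and 0 of the 7. The difference, CD8 minus DP, was 0.30 for Satb1 (95 percent interval -0.17 to 0.77, adjusted p = 0.951), 0.24 for Lef1, 0.17 for Ets1, 0.13 for Ikzf1, 0.11 for Ikzf3, -0.10 for Tcf7 and -0.07 for Bcl11b. Satb1 and Ets1 thus had their largest differences in separate cell types, and a difference between the cell types was not shown for either.

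The genes whose pattern over the 16 samples was most like each factor were found by Pearson's r of log2 normalized CPM among 11187 genes. The samples fall into 2 cell types, how far this sets each r was not measured, and r is given as a description. Among the genes nearest to Tcf7 were Prrt1 (0.986) and Zfp395 (0.984), and Lef1 was nearest to Nfatc1 (0.991), Bcor (0.989) and Bin2 (0.988). Satb1 was nearest to Eif4e3 (0.972), Ccr9 (0.966), the chemokine receptor that holds thymocytes in the thymic cortex, and Adam12 (0.963). Bcl11b was nearest to Art4 (0.945), Dab2ip (0.920) and Slc9a9 (0.919). Ets1 was nearest to Nedd4 (0.939), 1810019D21Rik (0.939) and Sox4 (0.904). Ikzf1 was nearest to Rab10 (0.968), Pitpna (0.965) and Tbl1x (0.959), and Ikzf3 to Cdk12 (0.981), Prr14l (0.976) and Arhgap20 (0.976).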

How the data were processed

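The authors filtered reads with fastp 0.13.1, aligned them with HISAT2 2.1.0, counted fragments per gene with featureCounts 1.6.1 in strand-specific mode, and deposited raw counts without normalization. The DP table gives mm10 positions and exonic lengths, used here for both tables to compute TPM. The columns of the CD8 table, named as control and knockout with numbers 1 to 5, were taken as the samples of these labels. Within the groups compared, genes were filtered by filterByExpr and tested with edgeR 4.0.16 (TMM, quasi-likelihood F test, Benjamini-Hochberg adjustment over all genes tested), with adjusted p under 0.05 as passing, in R 4.3.3. DESeq2 1.42.0, named in the study's methods, was run as an alternative. Exact permutation tests were 2-sided, on log2 of normalized CPM plus 1, with scipy 1.17.1. A run on simulated data, with 200 changed genes, is not used in any result here. Other alternatives were RLE and upper-quartile normalization, 2 other count filters, all 4 groups in 1 fit, a robust prior, the replicate block, the study's thresholds, TMM sizes for the order of levels, Spearman correlation for likeness, and each sample left out. Proteins were not aligned, since no protein sequences were at hand.

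The factors and the gene lists were chosen with earlier results of these data known. Named genes were Tox4, the 7 factors, their paralogs, at most 4 genes of each other list by smallest adjusted p, the leading gene of each marker list and at most 3 genes most like each factor. Other genes, and the ratios, were chosen after their values were seen.

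Replicate numbers were taken to pair the DP samples, since each pair correlated above 0.1. After the mean of each genotype was removed, control and cKO samples of equal number correlated at 0.643, 0.120 and 0.290 over 11748 genes. Of the cKO samples, 2 and 3 correlated more with control 3 (0.297) and control 2 (0.324) than with their own number. The source of the pairing is not in the labels. The main DP fits and the exact permutation tests did not use the pairing. It entered the tests only as the replicate block, an alternative that passed 152 genes and 0 of the 7 factors. No replicates were duplicates, since the closest pair differed by a chi-square of 5.69 per degree of freedom. None of the 7 genes shares exons with another listed gene on its strand. The libraries carry no molecular identifiers, so counting error covers fragments and not molecules.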

Additional observations from a re-analysis of the deposited data

Results flagged for a closer look

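In groups of 5 samples, 63 sets of values were examined for a sample far from the others, which chance gives in about 1 in 20 sets, and 5 were found. The ratio of Tcf7 to Lef1 was 1.91 in the library labelled CD8 cKO replicate 4, against 2.26 to 2.33 in the other CD8 cKO samples. In the same library, which had the highest Tox4 level of the CD8 samples, the ratio of Ikzf1 to Ikzf3 was 1.502, against 1.17 to 1.25 in the others. Ets2 was at 143 TPM in CD8 cKO replicate 2, against 102 to 113 TPM in the others. CD8 control replicate 1 had 17741 genes with a count (the remaining CD8 controls 13708 to 14194), and its 9 B cell markers added to 69.7 TPM, against 22.6 to 31.4 TPM. The causes were not tested.

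Bcl2, a survival gene linked to Satb1, differed between the cell types in its cKO effect by 0.79 on the log2 scale (SE 0.15, adjusted p = 0.0499 by edgeR's quasi-likelihood test). Its mean level was 21.8 TPM in DP control and 13.3 TPM in DP cKO samples, and 149 and 165 TPM in CD8 control and CD8 cKO samples. The summed markers of mature cells were also lower in DP cKO cells, at 1737, 1549 and 1475 TPM in control and 1108, 1154 and 1264 TPM in cKO samples (median difference of effects 0.57, 0 of 10 passing, 4 unadjusted, 0 by DESeq2), and their part was not tested. The difference was 0.73 to 0.88 under its 25 alternatives and passed under 7, with adjusted p from 1.98e-04 by DESeq2 to 0.782 with samples of Y-linked expression alone. It passed when DP control replicate 3 or CD8 cKO replicate 1 was left out and failed when any other sample was. None of the 7 factors differed between the cell types by this test.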

How the results depend on the processing

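The 12 alternatives described with the processing and 3 more, chosen after the data were seen (CD8 samples 3 to 5 alone, sex as a covariate among CD8 samples, and samples of Y-linked expression alone), were each run on the comparisons they apply to. In every fit of the genotype comparisons and of the difference between them 0 of the 7 factors passed. Overlap in normalized CPM was also added after the data were seen. The genes passing in DP cells numbered 184 by DESeq2, 74 without a filter on low counts, 43 with all 4 groups in 1 fit and 0 to 8 with 1 sample left out. In CD8 cells they numbered 66 by DESeq2, 5 with samples 3 to 5 alone, 13 with sex as a covariate and 4 to 21 with 1 sample left out. For the difference of the effects they numbered 37 by DESeq2, 3 with upper-quartile normalization, 5 with CD8 samples 3 to 5 alone, 1 with samples of Y-linked expression alone and 0 to 11 with 1 sample left out. The study's thresholds left 3 factors in CD8 against DP cKO cells.

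A block for the replicate number gave 152 genes in DP cells, 44 in CD8 cells and 33 for the difference of the effects. CD8 samples of equal number correlated at 0.365, 0.299, 0.318, 0.313 and 0.0908. The cKO samples 1, 2 and 4 correlated best with the control of their number. The cKO sample 3 correlated best with control 4 (0.421), and cKO sample 5 with control 3 (0.148). The pair numbered 5 is below 0.1, so the numbers were not taken to pair the CD8 samples, though sex and Cd4 follow the number in both genotypes. The paper states that its mice were littermates of matched sex, and the labels do not tie a number to a litter. Numbers did not pair DP with CD8 samples (-0.011, -0.131 and 0.049 in controls, 0.025, -0.035 and -0.058 in cKO samples). Apart from Ets1 (-0.30) and Tox4 (0.31, adjusted p = 0.0690 by edgeR's quasi-likelihood test) in CD8 against DP controls, the block changed no other call of the named factors and paralogs.

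Small log2 fold changes turned direction. In DP cells Tcf7 was at -0.0016 with RLE size factors, at -0.0006 by DESeq2 and at -0.0925 to 0.0865 with 1 sample left out, Ikzf1 at -0.0785 to 0.0110 and Ikzf3 at -0.0940 to 0.0338. In CD8 cells Tcf7 was at 0.0032 with samples 3 to 5 alone and at -0.1852 to 0.0845 with 1 left out. Satb1 there was at 0.0032 without a filter, at 0.0166 with samples 3 to 5 alone and at -0.1066 to 0.0905 with 1 left out, Lef1 at -0.0293 to 0.1305 and Bcl11b at -0.0564 to 0.1100. The difference of the effects was 0.0055 for Tcf7 with samples of Y-linked expression alone and, with 1 left out, -0.1923 to 0.0725 for Tcf7 and -0.1421 to 0.0216 for Bcl11b. Bcl11a was at -0.2757 with CD8 samples 3 to 5 alone and at -0.0579 with samples of Y-linked expression alone in the controls, and in the cKO samples at 0.5399 with the block and at -0.6059 to 0.2289 with 1 left out. The log2 ratio of Ikzf1 to Ikzf3 differed by -0.1014 to 0.0819 between DP genotypes and by -0.0554 to 0.0334 between CD8 genotypes with 1 left out, and that of Satb1 to Bcl11b by -0.0700 to 0.0163 between CD8 genotypes. In CD8 against DP cKO cells Ikzf5 passed with RLE size factors (0.30), with 10 counts in every sample (0.28) and with all 4 groups in 1 fit (0.25).

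The order of the factors by level was the same with TMM library sizes. By Spearman correlation 0, 1, 1, 1, 1 and 0 of the 3 genes most like Lef1, Bcl11b, Satb1, Ets1, Ikzf1 and Ikzf3 were kept. Leaving 1 sample out of 5 against 3 allows no exact p below 0.0571.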
